A study of Mus musculus with 4 samples.

Results

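The RNA levels of 10 surface molecules through which B cells deliver or receive activating and restraining signals were followed in splenic B cells: *Cd80*, *Cd86*, *Icosl*, *Cd274*, *Pdcd1lg2*, *Cd83*, *Slamf1*, *Cd44*, *Cd24a* and *Cd38*. They were taken by name from the gene count table, which holds 41342 named genes, and all 10 were found in all 4 libraries. The mice were on strain 129 and came in 2 genotypes of the 3′ regulatory region of the immunoglobulin heavy chain locus. ΔleftPAL mice lack the stretch running from enhancer *hs3a* through the intervening repeats (*IRIS*) to the next enhancer, *hs1,2*, and ΔIRIS mice lack only the *IRIS* repeats and, per the study's text, carry *hs3a* in the opposite orientation. Both lines were made in 129-derived embryonic stem cells with a *loxP*-flanked selection cassette. Per the study's text, the cassette was then removed by crossing to cre-expressing mice. Splenic B cells enriched by removal of CD43+ cells were taken either directly (resting) or after 48 h of culture with 5 µg/ml LPS, the bacterial lipopolysaccharide that activates B cells through Toll-like receptor 4. Each genotype and state is 1 library, which the labels describe as a pool of 4 animals, whereas the study's methods give 2 pooled RNAs of 2 samples per genotype, so what each library pools is not settled. No cells cultured without LPS and no wild-type (wt) libraries were analysed here, so culture and LPS cannot be told apart and no value is relative to wt.

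T cells need a costimulatory signal beside the antigen receptor, and B cells supply it through ligands of the B7 family. CD80 and CD86 engage CD28 and the inhibitory receptor CTLA-4, ICOSL engages ICOS, and PD-L1 and PD-L2 engage the inhibitory receptor PD-1. CD83, SLAMF1, CD44, CD24 and CD38 are surface proteins of B cells whose amounts change with maturation and activation, and several of them are used as flow cytometry markers of B-cell stages.

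The libraries held from 23615496 to 29776108 counts in named genes, so that 3 counts, taken as the floor, correspond to 0.102 to 0.123 CPM, the unit of all levels here, in which counts are divided by the library size after TMM scaling. B-cell genes were abundant throughout, with a summed level over 7 marker genes of 4308 and 3533 CPM in resting and 2300 and 2322 CPM in LPS-activated ΔleftPAL and ΔIRIS cells. The resting libraries also held RNA of other cells. The 11 myeloid and dendritic cell markers summed to 424 CPM in resting ΔleftPAL and 582 CPM in resting ΔIRIS cells against 62.7 and 57.5 CPM after LPS, and *Clec9a*, *S100a8* and *S100a9* were at 0 reads in both LPS libraries. Most of the sum after LPS was *Flt3*, which rose from 17.8 to 45.3 CPM in ΔleftPAL and from 26.1 to 36.0 CPM in ΔIRIS cells, and *Itgam*, which did not pass (13.1 to 5.20 and 10.5 to 15.4 CPM). The other 9 markers summed to 393 and 545 CPM at rest and to 12.2 and 6.11 CPM after LPS. The 7 erythroid markers summed to 41539 and 29104 CPM at rest and to 58.3 and 124 CPM after LPS, and the 8 T and NK cell markers to 52.2 and 44.6 CPM at rest and 18.3 and 17.3 CPM after LPS. *Lck*, which did not pass, made up 18.1 and 17.2 CPM of the latter, and the other 7 markers summed to 21.4 and 26.1 CPM at rest and 0.186 and 0.102 CPM after LPS. The 6 plasma cell markers, of which 4 rose, summed to 625 and 897 CPM at rest and 1815 and 1279 CPM after LPS. *Sdc1* and *Irf4* did not pass. *Irf4* alone made up 285 and 604 CPM of the sums at rest and 458 and 392 CPM after LPS. All 10 genes of an early response list, added after values had been seen, fell after LPS (median log2 change -2.61), from a sum of 1328 to 218 CPM in ΔleftPAL and from 2064 to 169 CPM in ΔIRIS cells. These cells can carry several of the 10 molecules, and the part of all these lists in the results that follow was not tested. In such bulk RNA, fewer cells of a type and less RNA per cell cannot be told apart.

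The first comparison asked how the 10 genes moved between resting and LPS-activated cells. Of the 10 genes, 6 fell: the ligand genes *Icosl*, *Cd274*, *Pdcd1lg2* and *Cd86*, the SLAM receptor gene *Slamf1* and the ectoenzyme gene *Cd38*. *Cd24a* and *Cd44* rose, *Cd44* less firmly, and *Cd80* and *Cd83* did not pass the test over both genotypes. The test was edgeR's quasi-likelihood test with genotype and condition as terms, so that the states are compared within each genotype. Each gene's own spread comes from how far its LPS change differs between the genotypes, on 1 residual degree of freedom, and is moderated towards that of all genes with 4.35 prior degrees of freedom. Calls were made at an adjusted p under 0.05 over the 11286 genes that averaged 50 counts or more across the libraries, and all 10 genes were above that minimum. Over all genes tested, 36.4% were called higher and 27.9% lower. The median log2 change was 0.12 over all genes tested and -1.20 over the 10 genes. As each group is 1 pool, the p-values measure only the spread between these 4 libraries.

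Per length of the gene model, *Cd24a* was the highest in every library, at 274 and 342 CPM per kb in resting and 769 and 874 CPM per kb in LPS-activated ΔleftPAL and ΔIRIS cells, and *Cd83* came next, at 69.7 and 154 and then 67.9 and 66.1 CPM per kb. At rest *Icosl*, *Cd38* and *Cd274* followed, with 52.3, 50.3 and 17.9 CPM per kb in ΔleftPAL and 37.7, 51.8 and 43.8 CPM per kb in ΔIRIS cells. After LPS *Icosl* and *Cd274* were at 6.90 and 3.94 CPM per kb in ΔleftPAL and 3.61 and 3.35 CPM per kb in ΔIRIS cells, under *Cd38* (22.9 and 23.9) and *Cd44* (15.7 and 20.8). At rest *Cd80* was the lowest and after LPS *Pdcd1lg2*.

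**Figure D1:**
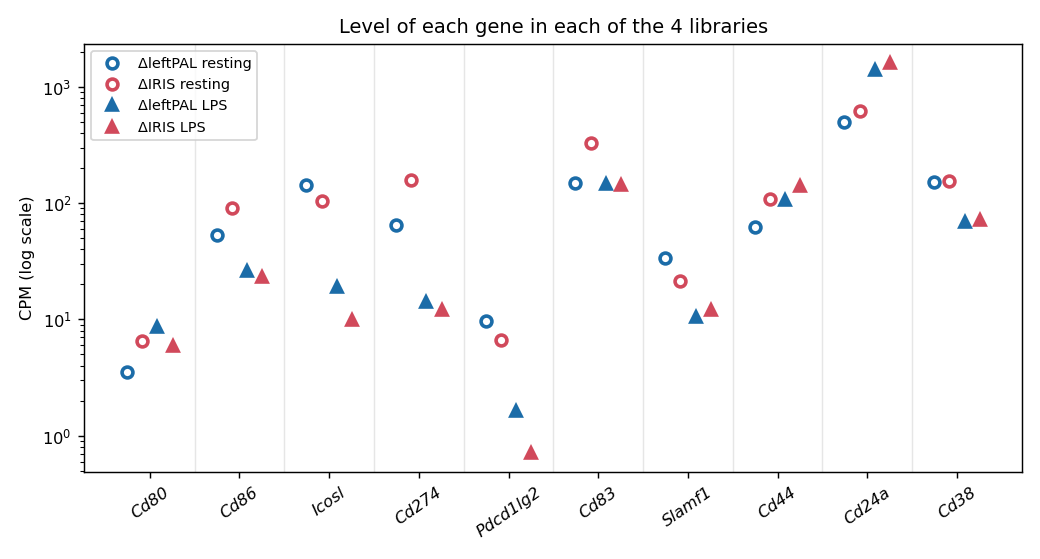
Level of each gene in CPM (log axis) in each of the 4 libraries, 1 point per library, with open circles for resting and filled triangles for LPS-activated cells, in blue for ΔleftPAL and red for ΔIRIS. The LPS points lie below both resting points for *Icosl*, *Cd274*, *Pdcd1lg2*, *Cd86*, *Slamf1*, *Cd38* and, narrowly in ΔleftPAL, *Cd83*, and above both for *Cd24a* only.

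*Icosl* (chr10:78069360-78079525, mm10, as all gene positions here), which encodes the ligand of ICOS, had the steepest fall of the 10 in the fit. It stood at 144 CPM in resting ΔleftPAL and 104 CPM in resting ΔIRIS cells, and at 19.0 and 9.96 CPM after LPS. The resting and LPS libraries did not overlap. The fitted log2 change was -3.15 ± 0.17 (SE), an 8.87-fold lower level (edgeR, adjusted p = 0.000188).

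*Cd274* (chr19:29367455-29388095), the gene of PD-L1, was at 64.9 CPM in resting ΔleftPAL and 159 CPM in resting ΔIRIS cells and at 14.3 and 12.1 CPM after LPS. The resting libraries differed widely while the LPS libraries lay close together, and the fitted log2 change was -2.95 ± 0.38 (edgeR, adjusted p = 0.00165). In the transcript annotation, 14.6% of its 31-base words also occur in other genes, but its gene counts stayed close to the kallisto estimates, as for all 10 genes (ratio 0.863 to 1.04). *Pdcd1lg2* (chr19:29410919-29471157), the gene of PD-L2, starts 22824 bp beyond the end of *Cd274* on chromosome 19. It was the lowest of the 10 after LPS, with 9.70 CPM in resting ΔleftPAL, 6.71 CPM in resting ΔIRIS and then 1.63 and 0.716 CPM, the last resting on 21 reads. Its fitted log2 change was -2.87 ± 0.31 (edgeR, adjusted p = 0.000945). Both PD-1 ligand genes thus fell in both genotypes.

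*Cd86* (chr16:36603869-36666081) and *Cd80* (chr16:38458933-38486933) encode the ligands shared by CD28 and CTLA-4 and lie 1792852 bp apart on chromosome 16. *Cd86* was at 52.7 CPM in resting ΔleftPAL and 90.1 CPM in resting ΔIRIS cells and at 26.1 and 22.9 CPM after LPS, a fitted log2 change of -1.50 ± 0.25 (edgeR, adjusted p = 0.00393). *Cd80* was scarce, at 3.52 and 6.57 CPM at rest and 8.69 and 5.87 CPM after LPS in ΔleftPAL and ΔIRIS cells. Its resting and LPS libraries overlapped, and the fitted log2 change of 0.55 ± 0.40 did not pass (edgeR, adjusted p = 0.270). In a fit of condition alone without the resting ΔIRIS library, which leaves 1 resting library, assumed to vary like the LPS libraries, it was 1.05 (edgeR, adjusted p = 0.0468). The same fit gave 0.15 without the resting ΔleftPAL, 0.21 without the ΔleftPAL LPS and 0.78 without the ΔIRIS LPS library, none of them called. Divided by gene length, the level of *Cd86* was 6.95 times that of *Cd80* in resting ΔleftPAL (95% Clopper-Pearson interval 5.58 to 8.75) and 6.37 times in resting ΔIRIS cells (5.50 to 7.42). After LPS the same ratio was 1.396 (1.20 to 1.63) and 1.82 (1.53 to 2.16). The balance between the CD28 ligand transcripts was therefore lower after LPS in both genotypes, by more than the counting error. For *Cd274* over *Pdcd1lg2* the ratio per length was 3.04 (2.65 to 3.49) and 10.7 (9.31 to 12.5) at rest and 3.96 (2.90 to 5.55) and 7.70 (4.96 to 12.6) after LPS, and the intervals of the genotypes did not overlap at rest, whereas those of the states overlapped within each genotype. All such intervals cover counting error only.

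The region before the transcription start of the ligand genes is given because several of them fell, whereas *Cd80* was not called. The part of these sequences in the LPS changes was not tested. The RefSeq promoter table (GRCm38.p6) matched 7 of the 10 genes, and the 250 bases before the start were searched on both strands for NF-kB, AP-1 (TGANTCA), an E-box (CACGTG) and PU.1 (GAGGAAGT). The sequences below run 5′ to 3′ on the gene's strand, and capitals mark a match.

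Icosl chr10:78069118-78069367 (+ strand): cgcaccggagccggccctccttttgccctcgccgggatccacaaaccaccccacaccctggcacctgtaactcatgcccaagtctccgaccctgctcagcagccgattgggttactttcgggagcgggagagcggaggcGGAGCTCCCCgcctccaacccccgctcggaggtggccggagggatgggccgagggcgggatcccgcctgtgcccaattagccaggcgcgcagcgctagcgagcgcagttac

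Pdcd1lg2 chr19:29410669-29410918 (+ strand): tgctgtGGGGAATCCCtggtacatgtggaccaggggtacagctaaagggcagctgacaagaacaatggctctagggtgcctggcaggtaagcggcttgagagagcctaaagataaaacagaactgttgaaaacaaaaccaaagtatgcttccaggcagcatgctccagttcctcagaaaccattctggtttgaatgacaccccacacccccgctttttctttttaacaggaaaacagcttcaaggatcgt

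Cd274 chr19:29367188-29367437 (+ strand): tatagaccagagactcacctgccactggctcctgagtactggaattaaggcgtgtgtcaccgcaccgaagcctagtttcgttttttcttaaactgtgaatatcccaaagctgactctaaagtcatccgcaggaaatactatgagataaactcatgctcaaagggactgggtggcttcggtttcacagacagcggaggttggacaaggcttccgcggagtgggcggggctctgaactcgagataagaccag

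Cd80 chr16:38458683-38458932 (+ strand): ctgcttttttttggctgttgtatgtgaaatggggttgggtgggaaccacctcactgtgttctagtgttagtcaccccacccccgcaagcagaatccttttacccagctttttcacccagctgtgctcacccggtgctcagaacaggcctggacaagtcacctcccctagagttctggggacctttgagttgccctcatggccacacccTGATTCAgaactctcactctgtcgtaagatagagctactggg

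*Icosl* held an NF-kB match at positions -111 to -102 from the start and *Pdcd1lg2* one at -244 to -235. *Cd80* held an AP-1 match at -42 to -36. *Cd274* and the other 3 genes matched in the table, *Slamf1*, *Cd44* and *Cd38*, held none of the 4 words. Of 32851 mouse promoters in windows of the same length, 7.25% held the NF-kB word, 6.75% the AP-1 word, 6.02% the E-box and 2.44% the PU.1 word. The NF-kB word has 10 letters, and no match overlapped another. A match is a description of the letters only, since binding was not measured. *Cd83*, *Cd86* and *Cd24a* were not matched in the table.

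*Slamf1* (chr1:171767127-171801184) encodes a receptor that binds itself on neighbouring cells and signals through SAP-type adaptors. It was at 33.7 CPM in resting ΔleftPAL and 21.5 CPM in resting ΔIRIS cells and at 10.4 and 12.0 CPM after LPS. The LPS libraries were both below the resting ones, and the fitted log2 change was -1.27 ± 0.24 (edgeR, adjusted p = 0.00624). *Cd38* (chr5:43868809-43912375), whose product consumes NAD at the cell surface, was nearly the same in both genotypes, at 152 and 156 CPM at rest and 68.9 and 72.1 CPM after LPS. Its fitted log2 change was -1.13 ± 0.12, a 2.18-fold lower level (edgeR, adjusted p = 0.000996).

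*Cd24a* (chr10:43579169-43584262) encodes a small, heavily glycosylated, lipid-anchored protein that is abundant on young B cells and on red cell precursors. It was the most abundant of the 10 per length in every library, and rose from 496 to 1395 CPM in ΔleftPAL and from 619 to 1584 CPM in ΔIRIS cells. The fitted log2 change was 1.42 ± 0.12, a 2.68-fold higher level (edgeR, adjusted p = 0.000510). The summed erythroid markers fell, as given above, and the part of erythroid RNA in the level or change of *Cd24a* was not tested. The direction of *Cd24a* turned, to -1.39, only when *Gapdh* was taken as constant. *Gapdh* itself went from 188 to 1179 CPM in ΔleftPAL and from 167 to 1324 CPM in ΔIRIS cells. In the annotation 7.11% of the 31-base words of *Cd24a* also occur in the related sequences *Gm15352* and *Gm6212*, and *Gm15352* had 0 reads in all 4 libraries.

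*Cd44* (chr2:102811141-102901665), the gene of the hyaluronan receptor, was at 61.9 CPM in resting ΔleftPAL and 109 CPM in resting ΔIRIS cells and at 106 and 141 CPM after LPS. It was higher after LPS within each genotype, but the resting ΔIRIS library lay above the ΔleftPAL LPS library. The fitted log2 change was 0.58 ± 0.15 (edgeR, adjusted p = 0.0205), and it kept its call in 8 of 14 alternative settings other than the *Gapdh* scaling, with values from 0.19 to 0.997. With all 4 libraries and condition alone it was 0.53 and not called (edgeR, adjusted p = 0.154). Fits of condition alone to 3 libraries gave 0.19 without the resting ΔleftPAL and 0.997 without the resting ΔIRIS library. They gave 0.72 without the ΔleftPAL LPS and 0.32 without the ΔIRIS LPS library. The call was lost in all but the fit without the resting ΔIRIS library. As these fits also drop the genotype term, the part of the library and that of the genotype term cannot be told apart there. The change turned to -2.24 under the *Gapdh* scaling. *Cd83* (chr13:43785107-43803130), which encodes a surface protein that stabilises MHC class II and CD86, was at 149 CPM in resting ΔleftPAL, 331 CPM in resting ΔIRIS, and 146 and 142 CPM after LPS. The resting ΔIRIS library stood above the others, which were alike, and the fitted log2 change of -0.63 ± 0.29 did not pass (edgeR, adjusted p = 0.107). Fits of condition alone, each with 1 resting library that is assumed to vary like the LPS libraries, gave -1.20 without the resting ΔleftPAL library (edgeR, adjusted p = 0.000947) and -0.06 without the resting ΔIRIS library (edgeR, adjusted p = 0.738).

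**Figure D2:**
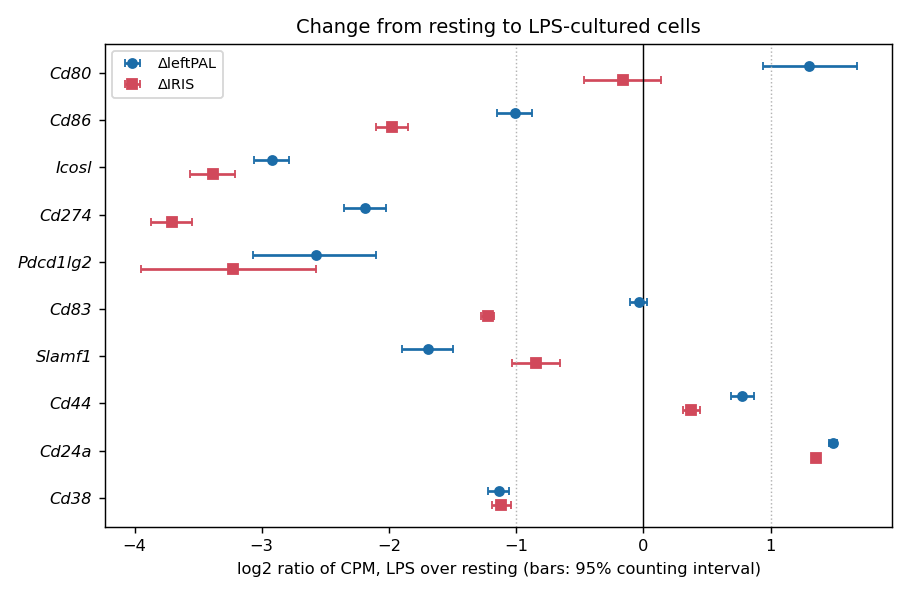
The log2 ratio of CPM, LPS over resting, for each gene in ΔleftPAL (blue circles) and ΔIRIS (red squares), with 95% Clopper-Pearson intervals that cover counting error only; dotted lines mark a 2-fold difference. *Cd80* is at 1.30 in ΔleftPAL and -0.16 in ΔIRIS, and *Cd274* at -2.19 and -3.71.

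Taken one genotype at a time, by a rule of at least 2-fold on CPM plus 0.5, 2 of the 10 genes were higher in ΔleftPAL (*Cd80* and *Cd24a*; 20.1% of all genes tested) and 5 lower (*Icosl*, *Cd274*, *Pdcd1lg2*, *Slamf1* and *Cd38*; 15.5%). *Cd80* fell short of the rule in ΔleftPAL with kallisto TPM (0.91) or 5 CPM added (0.68). *Cd86* just missed it there at -0.999, and its ratio with no CPM added was -1.01, and -1.15 with DESeq2 size factors. In ΔIRIS, 1 was higher (*Cd24a*; 21.6%) and 6 lower (*Cd86*, *Icosl*, *Cd274*, *Pdcd1lg2*, *Cd83* and *Cd38*; 17.3%). Of the 10 genes, 4 were at least 2-fold lower in both genotypes (*Icosl*, *Cd274*, *Pdcd1lg2* and *Cd38*), against 13.1% of all genes tested, and 1 was at least 2-fold higher in both (*Cd24a*; 17.3%). *Cd80* was the 1 gene of the 10 whose change had opposite signs in the genotypes, as had 11.3% of all genes tested, and its interval in ΔIRIS held 0 (-0.47 to 0.14).

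**Figure D3:**
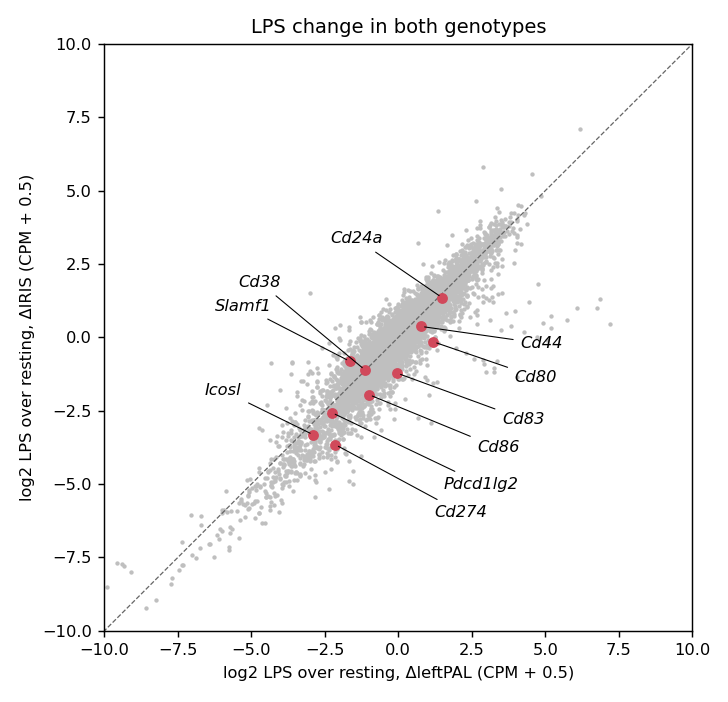
The log2 change from resting to LPS-activated cells (CPM plus 0.5) in ΔleftPAL (x axis) and ΔIRIS (y axis), with 1 grey point for each of the 11286 genes tested, the 10 genes in red, and a dashed line where both changes are equal. *Cd274*, *Cd80*, *Cd83* and *Cd86* lie below the line, *Slamf1* above it, and *Cd38* on it.

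The LPS change itself differed between the genotypes for several genes. The difference, ΔIRIS minus ΔleftPAL on the log2 scale, was -1.52 for *Cd274* (95% counting interval -1.75 to -1.30), -1.47 for *Cd80* (-1.93 to -1.001) and -1.19 for *Cd83* (-1.27 to -1.10). These 3 genes passed 2-fold, as did 3.6% of all genes tested in that direction, and 0 of the 10 passed it the other way (1.45%). *Cd86* was just under 2-fold at -0.96 (-1.14 to -0.78). *Slamf1* went the other way, by 0.85 (0.58 to 1.12). *Cd38* differed by 0.02 (-0.09 to 0.13), and the interval of *Pdcd1lg2* (-0.66) also held 0. *Icosl* (-0.46, -0.68 to -0.24), *Cd44* (-0.40, -0.51 to -0.29) and *Cd24a* (-0.14, -0.17 to -0.10) had smaller differences. Of all genes tested, 14.4%, 15.8% and 33.7% had lower values than these. How many of all genes tested had an interval without 0 was not counted. With 1 library per group these differences have no replicate check.

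The second comparison asked how the genotypes differed within each state. At rest, ΔIRIS cells had more RNA of *Cd274* (2.45-fold), *Cd83* (2.21-fold), *Cd80* (1.87-fold), *Cd44* (1.76-fold), *Cd86* (1.71-fold) and *Cd24a* (1.25-fold) than ΔleftPAL cells. ΔIRIS cells had less of *Slamf1* (1.57-fold), *Pdcd1lg2* (1.45-fold) and *Icosl* (1.38-fold). Each difference was beyond the counting error, but the share of all genes tested beyond theirs was not counted, at rest or after LPS. For *Cd24a*, 82.4% of all genes tested had lower ratios. *Cd38* did not differ beyond the counting error, at a log2 ratio of 0.04 (-0.02 to 0.11). *Cd274* and *Cd83* were at least 2-fold higher, as were 1.83% of all genes tested, and 99.1% and 98.7% of all genes tested had lower ratios than theirs. No gene of the 10 was at least 2-fold lower (1.02% of all genes tested).

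**Figure D4:**
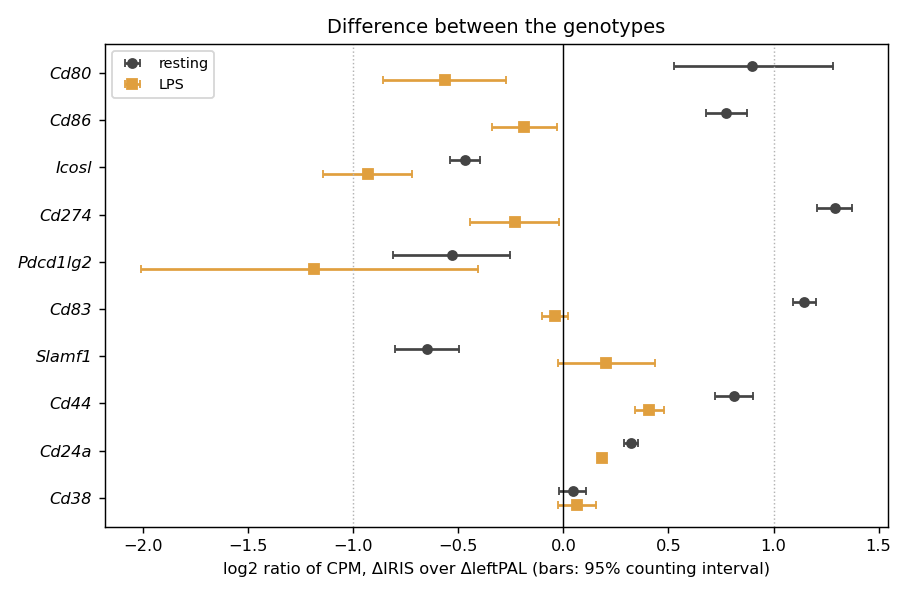
The log2 ratio of CPM, ΔIRIS over ΔleftPAL, for each gene at rest (dark circles) and after LPS (orange squares), with 95% Clopper-Pearson intervals that cover counting error only; dotted lines mark a 2-fold difference. At rest *Cd274* (1.29), *Cd83* (1.15), *Cd80* (0.90), *Cd44* (0.81) and *Cd86* (0.78) lie to the right, and after LPS *Icosl* (-0.93) and *Pdcd1lg2* (-1.19) lie furthest to the left.

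After LPS the picture was different. *Cd274* was 14.3 and 12.1 CPM and *Cd83* 146 and 142 CPM in ΔleftPAL and ΔIRIS cells, log2 ratios of -0.23 (-0.44 to -0.02) and -0.04 (-0.10 to 0.02). *Icosl* was lower in ΔIRIS cells by 1.91-fold, as at rest. *Pdcd1lg2* was lower by 2.28-fold, on 44 and 21 reads, and with 0.5 CPM added its log2 ratio was -0.81. By that rule 0 of the 10 genes were at least 2-fold apart, against 0.567% of all genes tested that were higher and 1.41% that were lower. *Cd44* was higher in ΔIRIS cells in both states, by 0.81 at rest and 0.41 after LPS on the log2 scale. After LPS the log2 ratio was also above 0 beyond the counting error for *Cd24a* (0.18, 0.16 to 0.20), and below 0 for *Cd80* (-0.57, -0.86 to -0.28) and *Cd86* (-0.19, -0.34 to -0.03). The intervals of *Slamf1* (0.20, -0.03 to 0.43) and *Cd38* (0.06, -0.03 to 0.16) held 0.

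Fitted over both states, the genotype term called 0 of the 10 genes (edgeR, adjusted p under 0.05), against 0.00886% of all genes tested, which is 1 gene. At an unadjusted p under 0.05 it held 3 of the 10 and 792 of the 11286 genes tested. The 3 were *Icosl* (log2 difference -0.69 ± 0.16, edgeR, adjusted p = 0.674), *Cd44* (0.61 ± 0.15, edgeR, adjusted p = 0.707) and *Pdcd1lg2* (-0.79 ± 0.30, edgeR, adjusted p = 0.707). A Wald test in DESeq2 also called 0 of the 10, and 37 genes in all.

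Other genes moved with the resting difference. Of the 11 myeloid and dendritic cell markers, 8 were higher in the resting ΔIRIS library and 3 lower. Those lower were *S100a8* (3.52 against 0.688 CPM), *S100a9* (5.24 against 0.826 CPM) and *Itgam* (13.1 against 10.5 CPM), and those higher included *Itgax* (31.1 against 57.2 CPM), *Xcr1* (2.78 against 8.12 CPM) and *Clec9a* (3.36 against 7.26 CPM). Of the 10 early response genes, 8 were higher in the same library, among them *Nr4a1* (105 against 316 CPM) and *Egr1* (41.5 against 89.0 CPM), which encode transcription factors induced within the first hours of receptor signalling, and the median log2 ratio of the list was 0.48 against 0.00019 over all genes tested. The part of these in the resting difference of *Cd274*, *Cd83*, *Cd80*, *Cd86* and *Cd44* was not tested.

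The kallisto table lists more than 1 transcript for *Cd44*, *Cd86* and *Slamf1* and 1 for each of the other 7 genes. *Cd44* has variable exons between constant ends, and the short form without them (Cd44-203 in the annotation, 9 exons) took 54.9% and 50.8% of its TPM in resting ΔleftPAL and ΔIRIS cells and 59.4% and 58.7% after LPS. The 19-exon form (Cd44-201) went from 25.1% to 14.1% in ΔleftPAL and from 25.8% to 11.9% in ΔIRIS cells, while the 14-exon form (Cd44-207) went from 5.67% to 18.1% and from 12.7% to 23.4%. The latter carries 5 exons that the short form lacks, 636 bases between chr2:102831330-102842377 (mm10), and the former 10, 1245 bases between chr2:102831330-102848782. Both end at the same annotated base, 1406 bases beyond the short form, so exon use and the end used cannot be told apart in their shares against the short form, whereas the shift between these longer forms is between forms with the same 3′ end. *Cd44* thus shifted among its longer forms in the same direction in both genotypes, on estimated values with no replicate.

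For *Cd86*, the coding form (Cd86-201) took 48.0% and 69.0% of TPM at rest and 50.6% and 61.5% after LPS in ΔleftPAL and ΔIRIS cells. The non-coding form Cd86-203 took 37.2% and 20.8% at rest and 26.0% and 24.9% after LPS. The coding form alone went from 22.1 to 10.1 TPM in ΔleftPAL and from 42.1 to 9.11 TPM in ΔIRIS cells, so it fell in both. *Slamf1* also has a retained-intron form, and its coding form held from 88.4% to 95.1% of TPM.

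**Figure D5:**
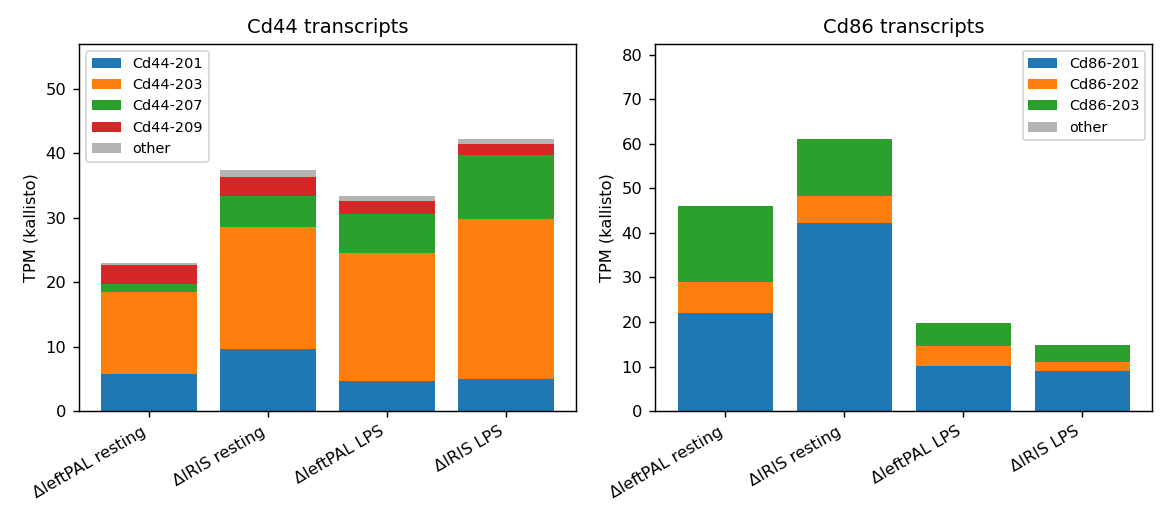
TPM of the transcripts of *Cd44* (left) and *Cd86* (right) in the 4 libraries, stacked, with forms that reach 10% of the gene's TPM in at least 1 library shown by name and the rest as other. The share of Cd44-207 is larger and that of Cd44-201 smaller after LPS in both genotypes.

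The receptors and relatives of these ligands were read from lists chosen for the pathway. Their median log2 LPS changes over the genes tested, beside 0.12 over all genes, were -0.23 for the B7 receptors, 0.16 for the TNF family, -0.27 for the SLAM family, -0.33 for activation markers and -0.23 for the partners of CD44, CD24, CD38 and CD86. The counts in each list stand beside 36.4% of all genes tested that were called higher and 27.9% called lower. Of 10 genes of the B7 receptor list, 6 were tested, of which 2 rose, 2 fell and 2 did not pass. *Ctla4*, whose product competes with CD28, rose from 1.19 to 10.4 CPM in ΔleftPAL and from 3.44 to 6.96 CPM in ΔIRIS cells (edgeR, adjusted p = 0.0222). *Pdcd1*, the gene of PD-1, went from 5 reads to 305 in ΔleftPAL and from 1 read to 342 in ΔIRIS cells (edgeR, adjusted p = 0.000412), while both its ligand genes fell. *Btla*, an inhibitory receptor of B cells, fell by 1.58 ± 0.18 on the log2 scale, and *Tnfrsf14*, its ligand, fell by 0.80 ± 0.18. *Icos* had 43 and 51 reads at rest and 0 after LPS. *Cd28* had 39 to 65 reads in each library and did not pass.

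Of 10 genes of TNF family costimulation, 3 were tested. *Tnfrsf13b* (TACI, a receptor for BAFF and APRIL) rose by 1.56 ± 0.15. *Cd40*, which receives T-cell help, did not pass, at -0.02 ± 0.12, nor did *Tnfrsf13c*, at 0.16 ± 0.15. Of 10 genes of the SLAM list in the table, 9 were tested, of which 1 rose (*Slamf6*, 0.78 ± 0.14), 4 fell and 4 did not pass. Among those that fell, *Cd244* changed by -2.85 ± 0.37, *Cd84* by -1.25 ± 0.13 and *Slamf8* had 126 and 290 reads at rest and 0 after LPS. Of 14 tested activation markers, 4 rose, 6 fell and 4 did not pass. *Il2ra*, the IL-2 receptor chain CD25, rose by 2.79 ± 0.23, the amino acid transporter *Slc7a5* by 1.74 ± 0.14 and the transferrin receptor *Tfrc* by 1.45 ± 0.15. *Nt5e* (CD73, which makes adenosine) fell by 2.63 ± 0.32, *Cd200* fell by 2.24 ± 0.17 and *Cd69*, an early activation marker, fell by 2.16 ± 0.27.

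Of 13 partner genes of CD44, CD24, CD38 and CD86, 7 were tested, of which 1 rose, 3 fell and 3 did not pass. *March1*, the ubiquitin ligase that removes CD86 and MHC class II from the surface, fell from 194 to 29.1 CPM in ΔleftPAL and from 178 to 14.9 CPM in ΔIRIS cells (edgeR, adjusted p = 0.000374). *Siglecg*, an inhibitory receptor reported to bind CD24, fell by 1.57 ± 0.15, opposite to *Cd24a*. *Ezr*, which links CD44 to the cytoskeleton, fell by 1.00 ± 0.14, and *Hmmr*, a hyaluronan-binding protein that also acts in mitosis, rose by 3.60 ± 0.14. *Nampt*, an enzyme of NAD synthesis, did not pass (0.48 ± 0.22), and at rest was 2.07-fold higher in ΔIRIS cells.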

How the data were processed

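RNA of splenic B cells was sequenced in 4 libraries (paired reads of 150 nt). Per the study's methods and the submitters' processing notes, the authors mapped reads with STAR 2.4.0a to mm10, with the Ensembl release 77 gene model, and deposited raw fragment counts per gene from featureCounts (Subread 1.4.6-p1). The authors also deposited kallisto 0.42.3 estimated counts and TPM per transcript. Estimated counts were rounded for count tests. A row of genes without a name (0.00876% to 0.0264% of counts) was left out. Per those methods, featureCounts ran with its forward-strand setting and counted multi-mapping reads by their primary alignment. The kit marks strand, and agreement of the gene counts with the kallisto estimates is given with the results.

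Library sizes were scaled by TMM (factors 1.03, 0.970, 1.01 and 0.984 in resting and LPS ΔleftPAL, then resting and LPS ΔIRIS) in edgeR 4.0.16 (R 4.3.3). edgeR's quasi-likelihood test was fitted with genotype and condition to the 11286 genes averaging 50 counts or more, with Benjamini-Hochberg adjustment, and tested on simulated data. Library ratios carry 95% Clopper-Pearson intervals (scipy 1.17.1), and differences of log2 ratios 95% Poisson intervals. PCR reads without molecular identifiers are not independent molecules, so intervals and floors cover counting error only. Transcript names and shared 31-base words come from GENCODE M21. The rule named all 10 genes. From each list of receptors, relatives, activation markers and partners it named the called genes of largest fold, up to 3 in each direction. Genes of the cell type marker and early response lists were not picked by this rule. *Icos*, *Cd28*, *Cd40*, *Tnfrsf13c*, *Nampt*, *Nr4a1*, *Egr1* and *Gapdh* were named after their values were seen. The genes and lists were chosen with earlier results of these data known. Alternatives were DESeq2 1.42.0, other scalings, minimum counts and added CPM, kallisto values, condition alone and leaving out each library. With 3 libraries no genotype term can be kept with a residual, so the fits that leave out a library use condition alone, and the state left with 1 library is assumed to vary like the other.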

Additional observations from a re-analysis of the deposited data

Results flagged for a closer look

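Several genes had values of opposite sign in comparable contrasts, with 1 library per group, and none of these differences was tested. *Cd80* changed by 1.30 (log2) from resting to LPS-activated cells in ΔleftPAL and by -0.16 in ΔIRIS, where the interval held 0 (-0.47 to 0.14), and its ratio of ΔIRIS over ΔleftPAL was 0.90 at rest and -0.57 after LPS. The same ratio was 0.78 and -0.19 for *Cd86*, and 1.29 and -0.23 for *Cd274*. For *Cd83* it was 1.15 at rest and -0.039 after LPS, where the interval held 0. For *Slamf1* the order was turned, with -0.65 at rest and 0.20 after LPS, and the interval of the latter held 0.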

How the results depend on the processing

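With a minimum mean of 200 counts *Pdcd1lg2* was not tested, which left 5 of the 10 genes called lower. Otherwise, the falls of *Icosl*, *Cd274*, *Pdcd1lg2*, *Cd86*, *Slamf1* and *Cd38* and the rise of *Cd24a* kept their direction and call in each alternative other than the *Gapdh* scaling (edgeR or DESeq2), with log2 changes of -3.64 to -2.71, -3.59 to -2.30, -3.51 to -2.32, -1.88 to -1.10, -1.59 to -0.94, -1.27 to -0.998 and 1.27 to 1.59. *Cd44* lost its call with DESeq2 size factors (0.43), TMM over the tested genes (0.44, added after seeing the data), condition alone (0.53), and condition alone without the resting ΔleftPAL (0.19), ΔleftPAL LPS (0.72) or ΔIRIS LPS library (0.32), so that 1 of the 10 genes was called higher in each. *Cd83* was called with no minimum count (-0.63, adjusted p = 0.0376). In the fits without 1 library, which also drop the genotype term and leave 1 state with a lone library, *Cd80* was called without the resting ΔIRIS library (1.05) and *Cd83* without the resting ΔleftPAL library (-1.20). These fits gave 1 to 3 of the 10 higher and 6 to 7 lower, and 3051 to 3898 genes higher and 2207 to 2993 lower in all, against 3998 and 3074 with condition alone on all 4 libraries. The fit with genotype as a term already compares the states within each genotype, and the labels give no replicate numbers to use as a block.

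With *Gapdh* counts as library sizes, which moved the median LPS change of all genes from 0.12 to -2.69, 0 of the 10 genes were called higher and 10 lower, and 132 genes higher and 10743 lower in all. *Cd80*, *Cd44* and *Cd24a* then changed by -2.26, -2.24 and -1.39 in the fit, *Cd80*, *Cd44* and *Cd24a* by -1.34, -1.87 and -1.16 in ΔleftPAL, and *Cd44* and *Cd24a* by -2.61 and -1.63 in ΔIRIS. Genes at least 2-fold higher and lower numbered 84 and 10183 in ΔleftPAL and 50 and 10538 in ΔIRIS, and those higher in ΔIRIS than in ΔleftPAL 402 at rest and 28 after LPS. The genotype term called 53 higher and 72 lower, against 1 and 17 with kallisto counts, 13 and 32 with no minimum count and 11 and 26 with DESeq2's Wald test. With kallisto TPM, 1408 and 1447 genes were at least 2-fold higher after LPS in ΔleftPAL and ΔIRIS, and 39 higher in ΔIRIS after LPS. With 5 CPM added, 1072 and 1296 were lower after LPS, 91 and 37 higher and lower in ΔIRIS at rest, and 13 and 70 after LPS. Of the 10 genes, *Pdcd1lg2* had the fewest reads after LPS, 44 in ΔleftPAL and 21 in ΔIRIS cells.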
